A study of Mus musculus with 8 samples.

Results

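The 10 mRNAs followed here drive or unlock the cell division cycle, and were measured in an RNA immunoprecipitation (IP) of DAZL, which binds RNA in germ cells. They encode the cyclins Ccna2, Ccnb1, Ccnd1, Ccnd2, Ccnd3, Ccne1 and Ccne2 and the phosphatases Cdc25a, Cdc25b and Cdc25c. The members were all gene probes (not control spots) that the array design names for these genes, which gave 20 of 41174 probes and 10 of 19020 genes tested. All 20 member probes passed the filter on dim probes, which kept 28077 probes. In the authors' deposited table the genes lie on 9 chromosomes, with Ccnd1 and Ccne1 both on chromosome 7.

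Cyclins are the regulatory subunits of cyclin-dependent kinases (Cdks) and are named for their cyclic build-up and destruction. D-type cyclins link growth signals to the start of the cycle through Cdk4 and Cdk6, E-type cyclins act with Cdk2 at the entry into S phase, cyclin A2 acts in S phase and on the way to mitosis, and cyclin B1 with Cdk1 drives mitosis. Cdc25 phosphatases remove inhibitory phosphates from Cdks, and so release the kinases that cyclins have bound. Primordial germ cells, the embryonic founders of eggs and sperm, divide by mitosis before they enter meiosis or arrest, and DAZL is known for binding mRNAs in their 3′ untranslated regions and acting on their translation and stability.

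The RNA came from primordial germ cells generated in culture from Dazl-GFP-V5 embryonic stem cells, which were depleted of feeder cells and kept in Differentiation Medium for 12 days. The stem cells derive from V6.5, of mixed C57BL/6 129SV strain, and every group carries the tagged Dazl, so that no group shows cells without it. The 4 groups had 2 arrays each: an IP with an antibody against V5 (V5 IP), an IP with an antibody against GFP (GFP IP), a mock IP with normal mouse IgG, and total RNA input with no antibody. The lysates were native, without ultraviolet crosslinking, so RNA can be lost or taken up after lysis. The series text gives 2 independent experiments, but no source says whether their cells were cultured separately, and the p-values cover no more than the spread between these arrays.

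Levels are given as normalized log2 signal, which is log2 of a probe's intensity over the 75th percentile of its array. A level of 0 therefore equals that percentile, and a fold change compares shares of each array's signal, not amounts of RNA. Levels of different probes cannot be compared with each other. A call is an adjusted p under 0.05 in limma over all 19020 genes, and SE is that of the fit. A gene is represented by its probe with the highest mean.

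Between 61.3% of probes (mock IP replicate 1) and 70.5% (input replicate 1) were well above background. Each experiment filled its own slide, with replicate 1 on slide 1. Mock IP replicate 1 stood apart from all other arrays on the second principal component, and values against the mock IP without it are given for each gene. The check of the IP, Dazl's own mRNA, had 4.04 and 4.32 on the V5 IP arrays, 3.90 and 4.63 on the GFP IP arrays, 1.06 and 2.05 on the mock IP arrays and 2.93 and 2.83 on the input arrays. All 10 of the 11 germ cell markers that were tested, and all 7 of the 8 pluripotency markers that were tested, were well above background on both input arrays. The summed linear level of the germ cell markers was 111 to 168 in V5 IP, 126 to 173 in GFP IP, 67.5 to 87.5 in mock IP and 81.5 to 88.0 in input. The 7 pluripotency markers summed to 175 to 279.9 in V5 IP, 183 to 275 in GFP IP, 83.5 to 85.6 in mock IP and 102 to 109 in input. The 8 neural markers summed to 11.2 to 23.3 in V5 IP, 12.2 to 21.9 in GFP IP, 8.15 to 9.55 in mock IP and 5.23 to 7.11 in input. The 7 fibroblast or feeder markers summed to 5.08 to 6.47 in V5 IP, 4.79 to 5.73 in GFP IP, 8.88 to 20.3 in mock IP and 10.1 to 12.1 in input. The 8 mesoderm and heart markers summed to 3.1 to 3.58 in V5 IP, 2.53 to 3.21 in GFP IP, 6.33 to 9.89 in mock IP and 4.22 to 4.78 in input. The 6 endoderm markers tested summed to 1.18 to 1.47 in V5 IP, 1.14 to 1.35 in GFP IP, 1.27 to 1.96 in mock IP and 2.0 to 2.82 in input. Each sum is carried by its brightest probes, and markers within a list could go opposite ways. The germ cell marker Ifitm3 had 3.32 and 3.68 on the V5 IP arrays and 4.53 and 4.40 on the mock IP arrays. Kit had 5.53 and 4.84 on the V5 IP arrays and 2.05 and 1.83 on the mock IP arrays. Of the neural markers, Tubb3 had 4.24 and 2.68 in V5 IP and 2.53 and 1.84 in mock IP. Nes had -0.39 and -0.21 in V5 IP and 1.26 and 0.71 in mock IP. Every tested marker was well above background on both input arrays, but to be tested a marker needed this on both arrays of some group. Prdm14, Fgf4 and Ttr were not tested. Such detection therefore does not show which cell types were present, and the part of these cells in the results below was not tested. The RNA is from whole cultures, in which fewer cells of a type and less RNA per cell cannot be told apart.

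Set against the mock IP, the cyclins and Cdc25 genes fell into 3 patterns. Ccnd1 stood far above the mock IP with both antibodies, and Ccnd2 and Ccna2 were called higher with the GFP antibody. Ccnd3 and Ccne1 were called lower with both antibodies. Ccne2, Ccnb1, Cdc25a and Cdc25b lay above the mock IP and Cdc25c below it without passing the test. In V5 IP 1 of 10 genes was called higher, where 14.6% of all genes were, and 2 of 10 lower, where 21.4% of all genes were. In GFP IP 3 of 10 were called higher, against 16.3% of all genes, and 2 of 10 lower, against 26.5%. The shares of lower calls were near the background in both IPs, and that of higher calls in V5 IP was also near it. The 10 genes had a median log2 fold change of 0.75 with the V5 antibody and 0.96 with the GFP antibody, while the median of all genes was -0.44 with either. Relative to that median of all genes, 8 of 10 members lay above it in V5 IP and 7 of 10 in GFP IP. When the arrays were instead centred on their median over all tested genes, the calls became 1 higher and 1 lower in V5 IP and 5 higher and 1 lower in GFP IP. The shares of all genes under that centring are not given here, so this change is not read as one of the members. Adding the slide as a block gave 5 of 10 genes higher in V5 IP, where 19.4% of all genes were, and 7 of 10 in GFP IP, where 20.9% were. It gave 2 of 10 lower in each, where 38.5% of all genes were lower with the V5 antibody and 40.2% with the GFP antibody. The fit without mock IP replicate 1 leaves 1 mock IP array, and its shares of all genes are not given here. Its values are therefore given with each gene, and no count of members is read from it.

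Against total input other genes passed than against the mock IP, Ccnd1 excepted. Ccnd1 and Cdc25b were called higher and Cdc25c lower, with both antibodies. These were 2 of 10 higher in V5 IP, where 14.2% of all genes were, and 1 of 10 lower, where 13.7% were. In GFP IP they were 2 of 10 higher, against 16.0% of all genes, and 1 of 10 lower, against 16.9%, so each share was near its background. Over input the 10 genes had a median of 0.11 with the V5 antibody and 0.28 with the GFP antibody, while that of all genes was -0.11 with either. With the arrays centred on the median, V5 IP had 2 higher and 0 lower calls, and GFP IP 3 higher and 0 lower. Quantile normalization gave 2 higher and 3 lower in V5 IP, and 3 higher and 2 lower in GFP IP. For centring and quantile normalization the shares of all genes are not given here, so these counts are not read against a background. The slide as a block gave 3 higher and 2 lower in each IP. Of all genes, it gave 20.4% higher and 24.3% lower in V5 IP, against 22.0% higher and 26.9% lower in GFP IP. The comparisons with mock IP and with input use the same IP arrays, so their values are not independent of each other.

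**Figure D1:**
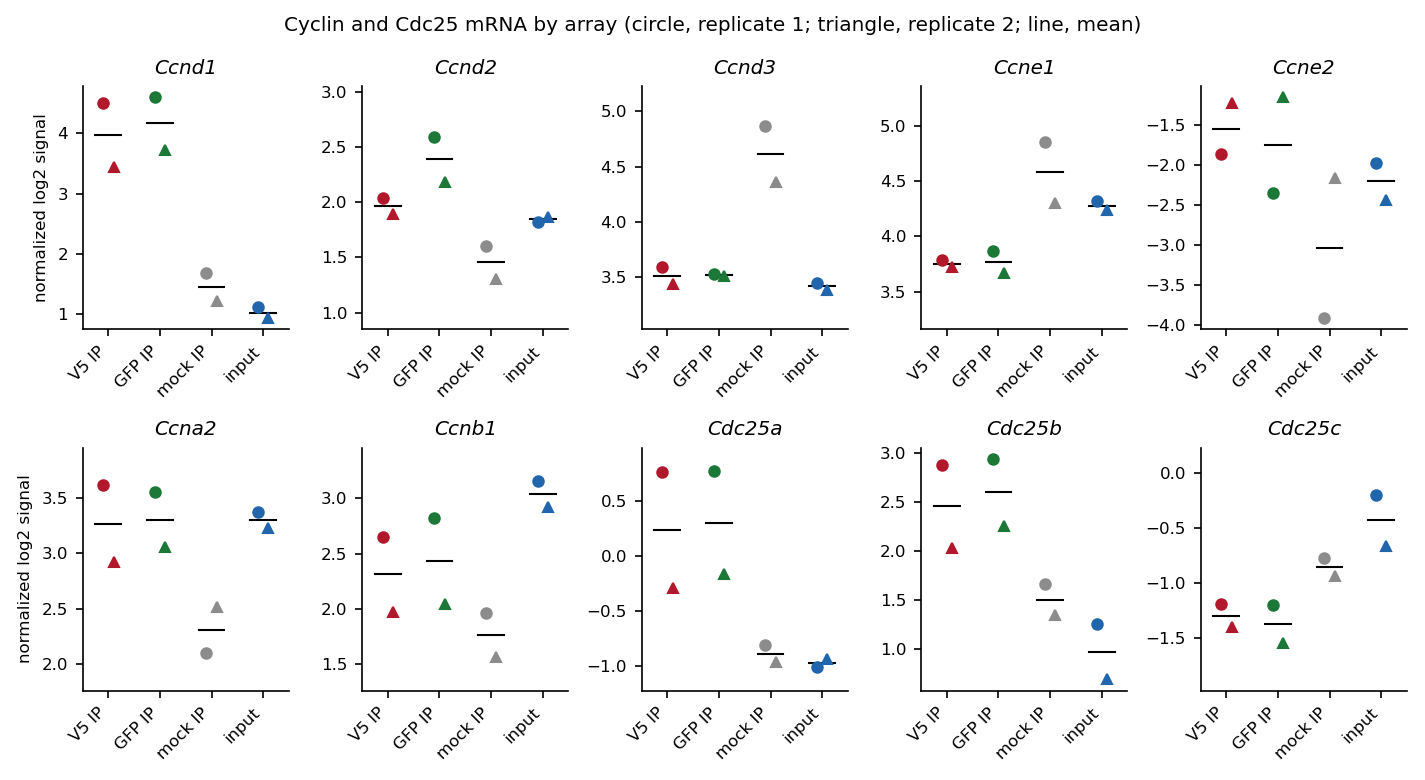
Normalized log2 signal of the probe that stands for each of the 10 genes on the 2 arrays of each group (circle, replicate 1; triangle, replicate 2; line, group mean; the vertical scale differs between genes). Ccnd1 lies between 3.44 and 4.60 on the 4 IP arrays of both antibodies and between 0.94 and 1.68 on the mock IP and input arrays, while Ccnd3 is high on the 2 mock IP arrays.

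**Figure D2:**
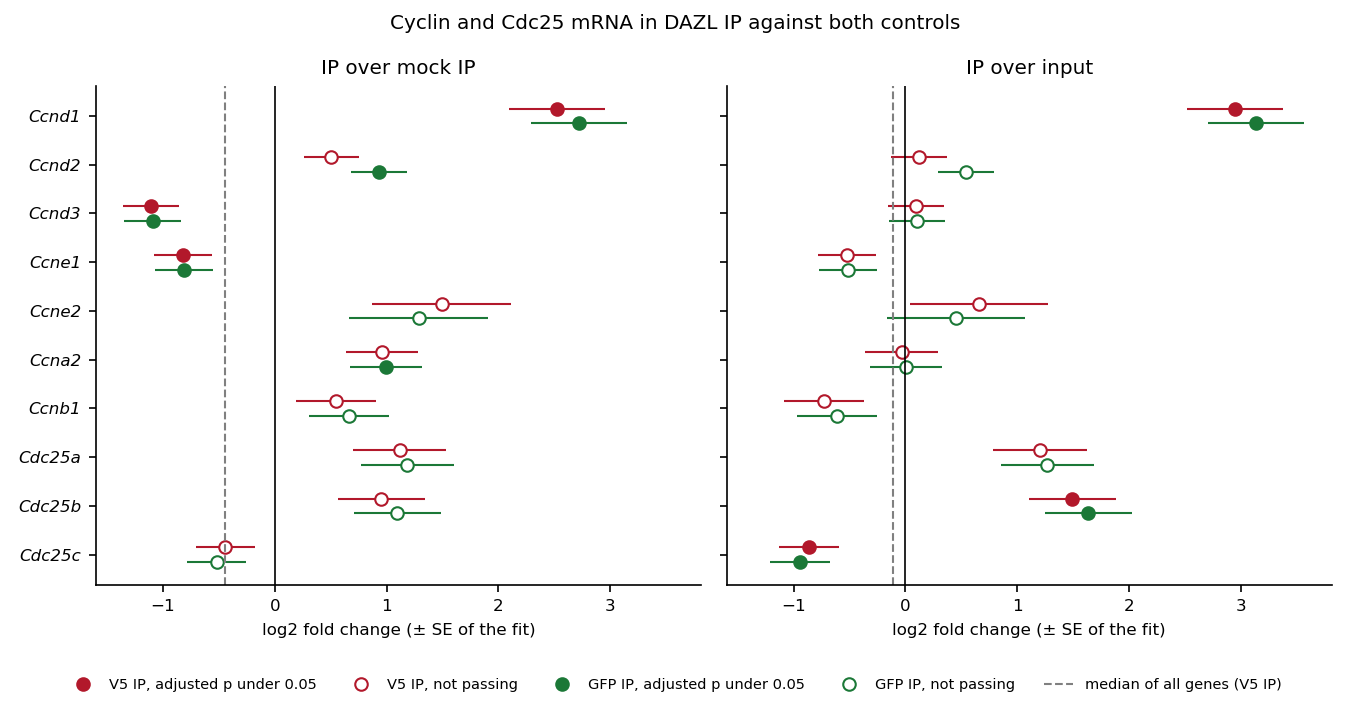
Log2 fold change of each gene in V5 IP and GFP IP over mock IP (left) and over input (right), with the SE of the fit, filled where the adjusted p was under 0.05; the dashed line is the median of all genes in V5 IP. Ccnd1 is the gene farthest to the right in both panels, from 2.52 over mock IP in V5 IP to 3.14 over input in GFP IP.

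Among the D-type cyclins, Ccnd1 had the largest difference of the 10 genes in V5 IP and in GFP IP, over mock IP and over input. Its normalized log2 signal was 4.50 and 3.44 on the V5 IP arrays, 4.60 and 3.73 on the GFP IP arrays, 1.68 and 1.22 on the mock IP arrays and 1.12 and 0.94 on the input arrays. All 4 IP arrays with a tag antibody lay above all mock IP and input arrays, and replicate 1 was the higher one in every group. The probe is printed at 10 places on each array. Unscaled intensities of those spots ran from 13600 to 16100 on V5 IP replicate 1 and from 1030 to 1270 on mock IP replicate 1. The 75th percentiles of these arrays were 649 and 352, so the unscaled intensities cannot be compared between arrays. The SD among the 10 spots, a measure of technical spread on 1 array only, was between 0.07 and 0.17 log2 units on the 8 arrays.

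Ccnd1 was 5.75-fold higher in V5 IP than in mock IP (log2 fold change 2.52, SE 0.43, adjusted p = 0.00841) and 6.59-fold higher in GFP IP (2.72, SE 0.43, adjusted p = 0.00548). Over input it was 7.69-fold higher in V5 IP (2.94, SE 0.43, adjusted p = 0.00395) and 8.81-fold higher in GFP IP (3.14, SE 0.43, adjusted p = 0.00283). Of all genes tested, 98.1% had a lower fold change over mock IP in V5 IP and 98.6% in GFP IP. Over input these shares were 99.3% with the V5 antibody and 99.6% with the GFP antibody. Dazl's own mRNA had a similar rank over mock IP (98.5% of genes below it in V5 IP, 98.6% in GFP IP) and a lower one over input (88.9% in each). Mock IP differed from input by 0.42 for Ccnd1 (adjusted p = 0.514). Without mock IP replicate 1, the value over mock IP was 2.76 in V5 IP and just missed the threshold (adjusted p = 0.0541), and in GFP IP it was 2.95 and passed (adjusted p = 0.0372).

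Ccnd2, the D-type cyclin most active in many stem and progenitor cells, moved less. Its signal was 2.04 and 1.89 on the V5 IP arrays, 2.59 and 2.18 on the GFP IP arrays, 1.60 and 1.31 on the mock IP arrays and 1.82 and 1.87 on the input arrays. Both IPs lay above both mock IP arrays, and the V5 IP and input arrays were close together. The log2 fold change over mock IP was 0.93 in GFP IP (SE 0.25, adjusted p = 0.0227) and 0.51 in V5 IP (SE 0.25, adjusted p = 0.139). The value over input was 0.12 in V5 IP (adjusted p = 0.761) and 0.54 in GFP IP (adjusted p = 0.132). Leaving out mock IP replicate 1 gave 0.65 in V5 IP (adjusted p = 0.135) and 1.08 in GFP IP (adjusted p = 0.0491). The call in GFP IP ended without GFP IP replicate 1 (0.73, adjusted p = 0.150), without mock IP replicate 2 (0.79, adjusted p = 0.0540) and without either input array (0.93, adjusted p = 0.0528).

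Ccnd3, the third D-type cyclin, differed in pattern from Ccnd1. Its signal was 3.59 and 3.43 on the V5 IP arrays, 3.53 and 3.51 on the GFP IP arrays, 4.87 and 4.36 on the mock IP arrays and 3.45 and 3.39 on the input arrays. The mock IP arrays were the high ones, and the arrays of both IPs lay close to the input arrays. Ccnd3 was lower than in mock IP by a log2 fold change of -1.10 in V5 IP (SE 0.25, adjusted p = 0.0208) and -1.09 in GFP IP (SE 0.25, adjusted p = 0.0152). Compared with input it was 0.09 in V5 IP (adjusted p = 0.814) and 0.10 in GFP IP (adjusted p = 0.786), with intervals of -0.49 to 0.68 and -0.48 to 0.69 at 95% confidence. It was the 1 gene of 10 called higher in mock IP than in input (1.20, SE 0.25, adjusted p = 0.0322), where 6.64% of all genes were. Without mock IP replicate 1 these calls ended, at -0.85 in V5 IP against mock IP (adjusted p = 0.0706), -0.84 in GFP IP against mock IP (adjusted p = 0.0515) and 0.94 in mock IP against input (adjusted p = 0.103). The V5 IP call also ended without either V5 IP array or either input array (adjusted p up to 0.0885), and the GFP IP call without either GFP IP array (up to 0.0813). The call against input also ended without either input array (up to 0.211) or either GFP IP array (0.0526).

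Of the E-type cyclins, Ccne1 was low in both IPs. Its signal was 3.79 and 3.72 on the V5 IP arrays, 3.87 and 3.67 on the GFP IP arrays, 4.86 and 4.30 on the mock IP arrays and 4.32 and 4.24 on the input arrays. The 4 arrays of V5 IP and GFP IP lay below all mock IP and input arrays. The log2 fold change over mock IP was -0.82 in V5 IP (SE 0.26, adjusted p = 0.0433) and -0.81 in GFP IP (SE 0.26, adjusted p = 0.0390). Many genes lay lower than Ccne1 in the same comparisons, with 27.0% of genes below it with the V5 antibody and 31.3% with the GFP antibody. The values over input were -0.52 in V5 IP (adjusted p = 0.171) and -0.51 in GFP IP (adjusted p = 0.168). Both calls ended when any array except mock IP replicate 2 was left out, with adjusted p up to 0.137 for V5 IP and up to 0.158 for GFP IP, and without mock IP replicate 1 the values were -0.55 for V5 IP and -0.53 for GFP IP. They also ended with the arrays centred on the median (0.10 for V5 IP and 0.105 for GFP IP).

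Ccne2, the other E-type cyclin, was a dim and variable member. Its signal was -1.87 and -1.23 on the V5 IP arrays, -2.36 and -1.15 on the GFP IP arrays, -3.92 and -2.17 on the mock IP arrays and -1.97 and -2.44 on the input arrays. Mock IP replicate 1 was the low array, and the GFP IP and mock IP arrays overlapped. The log2 fold change over mock IP was 1.49 in V5 IP (SE 0.62, adjusted p = 0.0911) and 1.29 in GFP IP (SE 0.62, adjusted p = 0.126). Both passed once the slide entered as a block, V5 IP at adjusted p = 0.0243 and GFP IP at 0.0386. The values turned on the mock IP arrays. Without mock IP replicate 1 they were 0.62 in V5 IP (adjusted p = 0.448) and 0.41 in GFP IP (adjusted p = 0.600), and without mock IP replicate 2 they were 2.37 in V5 IP (adjusted p = 0.0269) and 2.16 in GFP IP (adjusted p = 0.0321). Without GFP IP replicate 2, the GFP IP value was 0.68 (adjusted p = 0.437). The second Ccne2 probe was not well above background on mock IP replicate 1, and was measured on 1 of 2 mock IP arrays.

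Cyclin A2 mRNA stood above the mock IP but not above input. Ccna2 had 3.61 and 2.92 on the V5 IP arrays, 3.55 and 3.06 on the GFP IP arrays, 2.10 and 2.52 on the mock IP arrays and 3.38 and 3.23 on the input arrays. The mock IP arrays were the lowest, and the arrays of both IPs lay on either side of the input arrays. Over mock IP the log2 fold change was 0.96 in V5 IP (SE 0.32, adjusted p = 0.0522) and 1.0 in GFP IP (SE 0.32, adjusted p = 0.0412). The V5 IP value passed with the slide as a block (adjusted p = 0.0223). Over input it was -0.03 in V5 IP (adjusted p = 0.948) and 0.00 in GFP IP (adjusted p = 0.995). Mock IP was below input by -0.99 (adjusted p = 0.0822, and 0.0309 with the slide as a block). The GFP IP call ended without either GFP IP array (adjusted p up to 0.207), without either mock IP array (up to 0.175) and without either input array (0.0742), while the V5 IP value was 0.61 without V5 IP replicate 1 (adjusted p = 0.254) and passed without V5 IP replicate 2 (1.31, adjusted p = 0.0415). Leaving out mock IP replicate 1 gave 0.75 in V5 IP (adjusted p = 0.208) and 0.79 in GFP IP (adjusted p = 0.175).

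Cyclin B1 gave different answers with different probes. The probe that stands for Ccnb1 had 2.65 and 1.97 on the V5 IP arrays, 2.82 and 2.04 on the GFP IP arrays, 1.96 and 1.57 on the mock IP arrays and 3.15 and 2.93 on the input arrays. Input was highest and mock IP lowest, and the IPs lay between them. Its log2 fold change over mock IP was 0.55 in V5 IP (SE 0.36, adjusted p = 0.245) and 0.67 in GFP IP (SE 0.36, adjusted p = 0.161). With mock IP replicate 1 left out it was 0.75 in V5 IP (adjusted p = 0.262) and 0.87 in GFP IP (adjusted p = 0.193), and without replicate 1 of the IP it was 0.21 in V5 IP (adjusted p = 0.725) and 0.28 in GFP IP (adjusted p = 0.629). Over input it was -0.73 in V5 IP (adjusted p = 0.168) and -0.61 in GFP IP (adjusted p = 0.227), and mock IP was below input by -1.28 (adjusted p = 0.0586). Under the slide block, GFP IP over mock IP passed (adjusted p = 0.0295), as did V5 IP under input (0.0282), GFP IP under input (0.0495) and mock IP under input (0.00674).

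The other Ccnb1 probes were called higher over mock IP in the fit across all 28077 probes. One had 2.85 and 1.91 on the V5 IP arrays, 2.92 and 2.11 on the GFP IP arrays, 1.07 and 1.02 on the mock IP arrays and 2.19 and 1.94 on the input arrays. Its log2 fold change over mock IP was 1.33 in V5 IP (adjusted p = 0.0392) and 1.47 in GFP IP (adjusted p = 0.0249). The third probe gave 1.46 in V5 IP (adjusted p = 0.0304) and 1.66 in GFP IP (adjusted p = 0.0172). Over input these probes ran from 0.17 to 0.31 in V5 IP and from 0.37 to 0.45 in GFP IP, on the opposite side of 0 from the probe that stands for the gene.

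Of the Cdc25 phosphatases, Cdc25a, which acts at the entry into S phase and later, was high on replicate 1 of both IPs. It had 0.76 and -0.29 on the V5 IP arrays, 0.77 and -0.16 on the GFP IP arrays, -0.81 and -0.96 on the mock IP arrays and -1.0 and -0.93 on the input arrays. All 4 arrays of V5 IP and GFP IP lay above all mock IP and input arrays, and the replicates of each IP were far apart. Its log2 fold change over mock IP was 1.12 in V5 IP (SE 0.42, adjusted p = 0.0687) and 1.19 in GFP IP (SE 0.42, adjusted p = 0.0529). Over input it was 1.20 in V5 IP (SE 0.42, adjusted p = 0.0680) and 1.27 in GFP IP (SE 0.42, adjusted p = 0.0518). All 4 values passed with the slide as a block, with adjusted p from 0.0107 to 0.0172. Without V5 IP replicate 2 they also passed, at 1.64 (adjusted p = 0.0339) for V5 IP over mock IP and 1.73 (adjusted p = 0.0211) for V5 IP over input, but without V5 IP replicate 1 those were 0.59 (adjusted p = 0.324) and 0.68 (adjusted p = 0.342). Without GFP IP replicate 1, GFP IP was at 0.72 over mock IP (adjusted p = 0.266) and 0.81 over input (adjusted p = 0.276). When mock IP replicate 1 was left out, the values over mock IP were 1.19 in V5 IP (adjusted p = 0.187) and 1.26 in GFP IP (adjusted p = 0.152). The second Cdc25a probe was called higher in every one of these 4 comparisons, with 1.70 over mock IP in V5 IP (adjusted p = 0.0230), 1.68 in GFP IP (0.0177), 1.36 over input in V5 IP (0.0401) and 1.34 in GFP IP (0.0375).

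Cdc25b, which is known for starting the activation of Cdk1 at the approach of mitosis, was called higher over input. It had 2.88 and 2.03 on the V5 IP arrays, 2.95 and 2.25 on the GFP IP arrays, 1.66 and 1.35 on the mock IP arrays and 1.25 and 0.68 on the input arrays. Both IPs lay above every mock IP array, and the mock IP arrays lay above the input arrays. The log2 fold change over input was 1.49 in V5 IP (SE 0.39, adjusted p = 0.0274) and 1.63 in GFP IP (SE 0.39, adjusted p = 0.0171). Over mock IP it was 0.95 in V5 IP (SE 0.39, adjusted p = 0.0867) and 1.10 in GFP IP (SE 0.39, adjusted p = 0.0538), and the slide block took both past the threshold (0.00922 for V5 IP and 0.00459 for GFP IP). Over mock IP the V5 IP value also passed without V5 IP replicate 2 (1.38, adjusted p = 0.0489), and the GFP IP value without GFP IP replicate 2 (1.44, adjusted p = 0.0490), but without replicate 1 of the IP they were 0.53 in V5 IP (adjusted p = 0.377) and 0.75 in GFP IP (adjusted p = 0.252). Leaving out mock IP replicate 1 gave 1.11 in V5 IP (adjusted p = 0.176) and 1.25 in GFP IP (adjusted p = 0.126). The calls over input ended without either input array (adjusted p up to 0.167 for V5 IP and up to 0.117 for GFP IP), and without replicate 1 of that IP (1.06, adjusted p = 0.153 in V5 IP, and 1.29, adjusted p = 0.102 in GFP IP). The second Cdc25b probe gave 1.31 over input in V5 IP (adjusted p = 0.0529) and 1.43 in GFP IP (adjusted p = 0.0357). The third was dim, with unscaled intensities from 37 to 68.0 in V5 IP and from 21.1 to 27.5 in input. It passed no comparison, except over input with the slide as a block (1.32 in V5 IP, adjusted p = 0.0137, and 1.51 in GFP IP, adjusted p = 0.00736).

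Cdc25c, which activates Cdk1 at mitosis, was the phosphatase gene that ran the other way. Its signal was -1.19 and -1.39 on the V5 IP arrays, -1.20 and -1.55 on the GFP IP arrays, -0.77 and -0.93 on the mock IP arrays and -0.20 and -0.66 on the input arrays. Both IPs were lowest, mock IP was between, and input was highest, with no overlap between the IPs and either control. The log2 fold change over input was -0.86 in V5 IP (SE 0.26, adjusted p = 0.0463) and -0.94 in GFP IP (SE 0.26, adjusted p = 0.0304). Over mock IP it was -0.44 in V5 IP (adjusted p = 0.211) and -0.52 in GFP IP (adjusted p = 0.144), close to the median of all genes, and without mock IP replicate 1 it was -0.36 in V5 IP (adjusted p = 0.399) and -0.44 in GFP IP (adjusted p = 0.301). The second Cdc25c probe was called lower than input with -1.38 in V5 IP (adjusted p = 0.0112) and -1.39 in GFP IP (adjusted p = 0.00944). The V5 IP call of the gene ended without any single V5 IP, GFP IP or input array (adjusted p from 0.0640 to 0.288). The GFP IP call ended without either GFP IP array or either input array (0.0730 to 0.218), and both ended with the arrays centred on the median (0.0739 in V5 IP and 0.0542 in GFP IP).

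**Figure D3:**
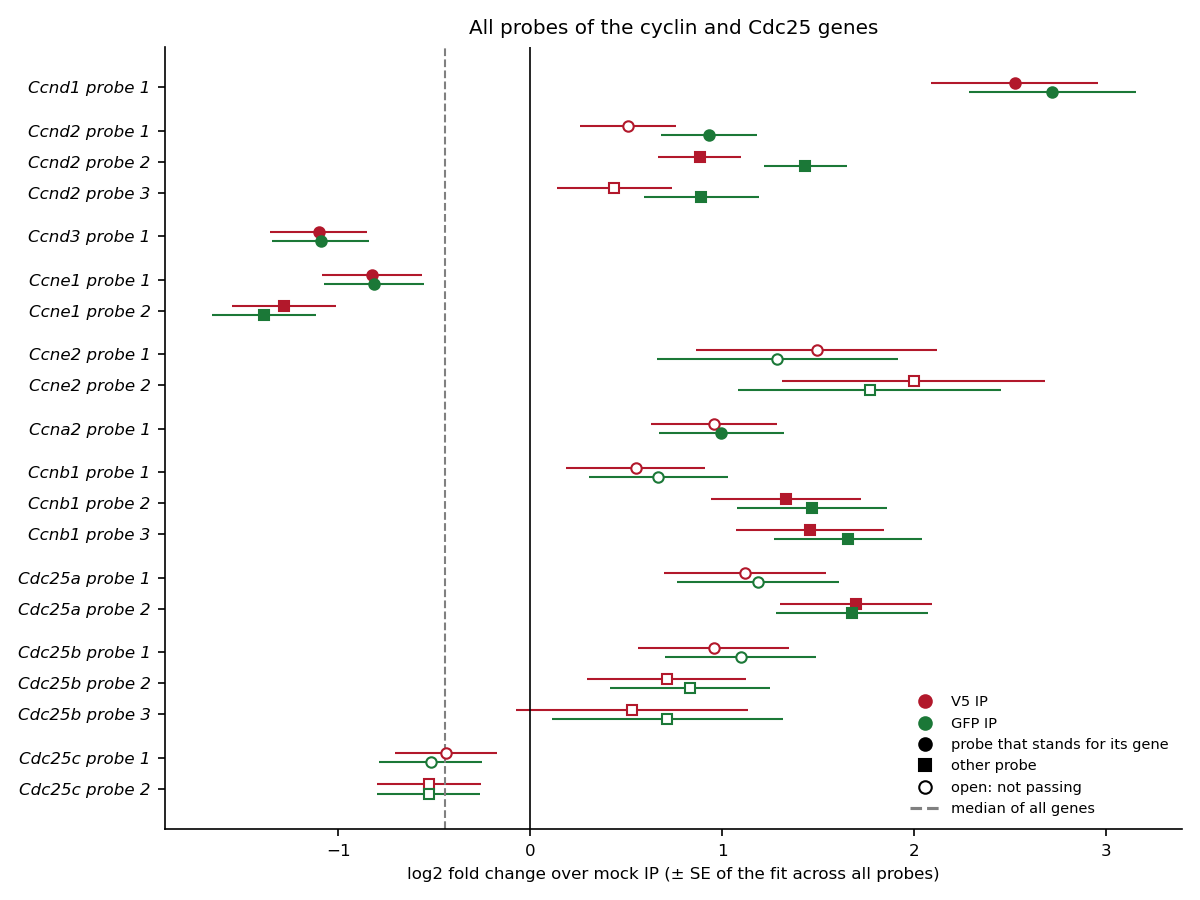
Log2 fold change over mock IP of all 20 probes, with the SE of the fit across all probes (V5 IP above GFP IP for each probe; circle, the probe that stands for its gene; square, another probe; filled, adjusted p under 0.05; dashed line, the median of all genes in V5 IP). Probes of one gene lie on the same side of 0, and the Ccnb1 probes differ most in size and call, from 0.55 to 1.46 in V5 IP.

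Counted by probe, 5 of 20 probes were called higher over mock IP in V5 IP, where 15.4% of all probes were, and 3 of 20 lower, where 17.1% were. In GFP IP 8 of 20 were called higher (17.2% of all probes) and 3 of 20 lower (22.5%). Over input, 3 of 20 were called higher in V5 IP (13.9% of all probes) and 2 lower (13.6%), and 4 were called higher in GFP IP (15.6%) and 2 lower (16.7%). Under the slide block, 11 of 20 were called higher over mock IP in V5 IP, where 20.8% of all probes were, and 14 of 20 in GFP IP, where 22.3% were. Over input that block gave 6 of 20 higher in V5 IP, where 20.0% of all probes were, and 7 of 20 in GFP IP, where 21.6% were. Probes of a gene share their target, so these are not independent counts of genes. The second Ccne1 probe was lower than in mock IP by -1.28 in V5 IP (adjusted p = 0.0184) and -1.39 in GFP IP (adjusted p = 0.0113), a larger difference than that of the first. A second Ccnd2 probe was called higher over mock IP in both IPs, with 0.88 in V5 IP (adjusted p = 0.0260) and 1.43 in GFP IP (adjusted p = 0.00508), and the third in GFP IP with 0.89 (adjusted p = 0.0497). That second Ccnd2 probe was also the 1 of 20 called lower in mock IP than in input (-0.88, adjusted p = 0.0472), where 5% of all probes were (6 of 20 under the slide block, where 16.2% were), and Ccnd3 was the 1 of 20 called higher, where 5.37% were.

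The slides gave the same direction over mock IP for all 10 genes, with mostly smaller differences on slide 2. In V5 IP, Ccnd1 was above mock IP by 2.82 on slide 1 and 2.22 on slide 2, and in GFP IP by 2.92 on slide 1 and 2.52 on slide 2. Cdc25a was above mock IP in V5 IP by 1.57 on slide 1 and 0.67 on slide 2, and Ccna2 by 1.51 on slide 1 and 0.40 on slide 2. The exceptions were Ccnd2 in V5 IP, with 0.43 on slide 1 and 0.58 on slide 2, and Cdc25c, which in V5 IP was at -0.42 on slide 1 and -0.46 on slide 2, and in GFP IP at -0.43 on slide 1 and -0.61 on slide 2. The median of all genes in V5 IP over mock IP was -0.53 on slide 1 and -0.34 on slide 2, and 18.7% of all genes were at least 2-fold higher on slide 1 and 11.3% on slide 2. Over input, Ccne2 in GFP IP was -0.39 on slide 1 and 1.29 on slide 2, and Ccna2 in V5 IP was 0.24 on slide 1 and -0.31 on slide 2, so neither gene had one direction there.

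**Figure D4:**
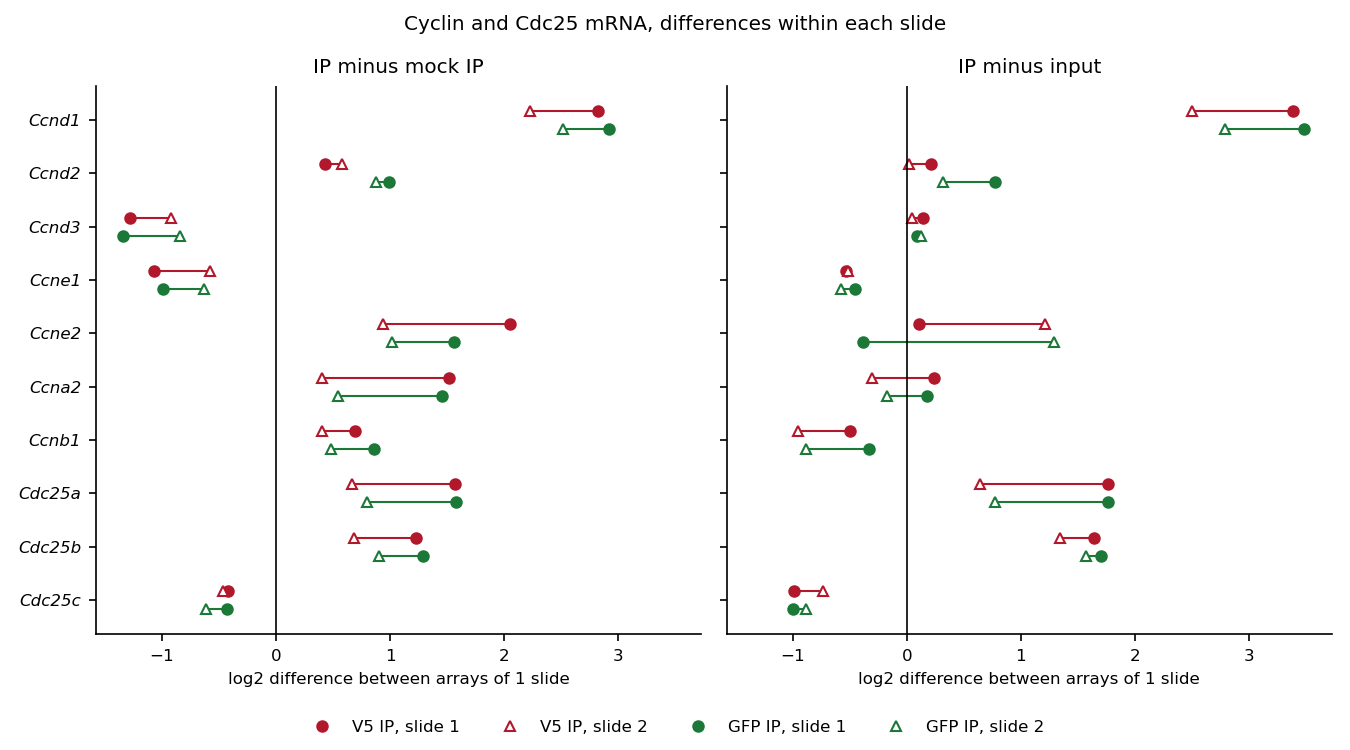
Log2 difference between the IP array and the control array of the same slide, over mock IP (left) and over input (right), for each gene (V5 IP above GFP IP; filled circle, slide 1; open triangle, slide 2). Over mock IP every pair of points lies on one side of 0, with Ccnd1 between 2.22 and 2.92, and over input Ccne2 in GFP IP and Ccna2 cross 0.

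Both antibodies recover the same fusion protein, and the 10 genes were not told apart between them. In V5 IP against GFP IP 0 of 10 genes were called by limma, where 0% of all genes were. An unadjusted p under 0.05 was found for 0 of 10, where 0.999% of all genes had one. Fitted with the slide as a block, these counts were also 0 and 0. Of all genes, the block called 0.00526% higher and 0% lower, and 2.12% had an unadjusted p under 0.05. The differences ran from -0.43 for Ccnd2 (95% interval -1.01 to 0.15) to 0.21 for Ccne2 (-1.23 to 1.65). For Ccnd1 the difference was -0.20 with an interval of -1.20 to 0.80. These intervals are of the fit without the slide block, where the SE for Ccnd1 was 0.43, against 0.26 with the block. Within the slides, the Ccnd1 difference was -0.10 on slide 1 and -0.29 on slide 2. With 2 arrays a group, small differences between the antibodies could go undetected. Ccnd2 was the member whose V5 IP arrays both lay below both GFP IP arrays.

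In mock IP against input, beside Ccnd3, 0 of 10 genes were called lower by limma, where 4.09% of all genes were. An unadjusted p under 0.05 in either direction was found for 3 of 10 genes, near the 33.3% of all genes. The 3 members were Ccnd3, Ccna2 and Ccnb1. Under the slide block 1 gene was called higher, where 21.4% of all genes were, and Ccna2 and Ccnb1, 2 of 10, lower, where 13.4% were. For Ccnd1 and Cdc25a the mean levels in mock IP and input differed by 0.42 or less, and for Ccna2 and Ccnb1 the mock IP mean was below that of input, at -0.99 for Ccna2 and -1.28 for Ccnb1.

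Genes that act beside the members were described from lists chosen with earlier results known. Of 19 other cyclins and cyclin partners tested, 6 were called higher and 1 lower over mock IP with either antibody, where 14.6% of all genes in V5 IP and 16.3% in GFP IP were called higher and 21.4% and 26.5% lower. The slide block gave 6 higher in each, with 3 lower in V5 IP and 4 in GFP IP. Of all genes, it called 19.4% higher and 38.5% lower in V5 IP, and 20.9% higher and 40.2% lower in GFP IP. Ccnc, the cyclin of the Mediator kinase module, rose by 2.54 in V5 IP (adjusted p = 0.00208) and by 2.38 in GFP IP (0.00191), and Ccnt2, a subunit of the elongation factor P-TEFb, by 2.47 and 2.06 (0.00340 and 0.00534). Ccnk, the cyclin of Cdk12 and Cdk13, fell by 0.86 and 0.78 (0.0278 and 0.0290), while Ccnf, an F-box protein, was at -1.11 and -1.14 (0.0788 and 0.0684, passing with the slide as a block at 0.00493 and 0.00333). The genes called higher in each IP were Ccnc, Ccni, Ccnj, Ccnjl, Ccnt1 and Ccnt2.

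Of 19 Cdks, V5 IP had 4 called higher than mock IP and 6 lower, and GFP IP had 5 higher and 4 lower. Of all genes, V5 IP had 14.6% called higher and 21.4% lower, and GFP IP 16.3% higher and 26.5% lower. Under the slide block, V5 IP had 5 higher and 7 lower, as did GFP IP. Cdk8, the kinase partner of cyclin C, rose by 2.68 in V5 IP (adjusted p = 0.00212) and by 2.70 in GFP IP (0.00185), and Cdk17 by 2.82 and 2.94 (0.00208 and 0.00173). Cdk2, the partner of cyclins E and A, and Cdk6, a partner of D-type cyclins, were among the higher calls, and Cdk4, the other D-type partner, among the lower. Cdk5, known for its roles in neurons, fell by 1.16 and 1.34 (0.0170 and 0.00850), and Cdk3 fell by 1.11 in V5 IP (0.0276) and was at -0.83 in GFP IP (0.0530), which passed under the slide block (0.0206).

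Of 8 Cdk inhibitors, 1 was called higher and 3 lower over mock IP in each IP, beside the same shares of all genes (14.6% higher and 21.4% lower in V5 IP, 16.3% higher and 26.5% lower in GFP IP). Under the slide block, V5 IP had 2 higher and 5 lower and GFP IP 2 higher and 4 lower. That block called 19.4% of all genes higher and 38.5% lower in V5 IP, and 20.9% higher and 40.2% lower in GFP IP. Cdkn2d, an inhibitor of Cdk4 and Cdk6, rose by 1.83 in V5 IP (adjusted p = 0.0442) and by 2.01 in GFP IP (0.0285), with 6.18 and 4.47 on the V5 IP arrays, 5.98 and 5.03 on the GFP IP arrays, 3.89 and 3.1 on the mock IP arrays and 2.74 and 2.69 on the input arrays. Cdkn1b, which inhibits cyclin E and cyclin A complexes, was at 0.68 and 0.78 over mock IP (0.106 and 0.0665, passing with the slide as a block at 0.0404 and 0.0222) and rose by 1.21 and 1.32 over input (0.0230 and 0.0144). Cdkn3 fell by 0.86 and 1.32 (0.0267 and 0.00654) and Cdkn1a, a target of p53, by 0.70 and 0.72 (0.0407 and 0.0324). Of 23 regulators of Cdk phosphorylation and cyclin destruction, 9 were called higher and 3 lower in each IP, where 14.6% of all genes in V5 IP and 16.3% in GFP IP were higher and 21.4% and 26.5% lower. Under the slide block 10 were higher and 3 lower in each IP, beside the same block shares of all genes as for the inhibitors. Ywhaz, a 14-3-3 protein of the family that binds Cdc25, rose by 2.56 and 2.83 (0.00208 and 0.00179) and Cdc14a, a phosphatase, by 2.56 and 2.50 (0.00506 and 0.00472). Fzr1, an activator of the anaphase-promoting complex, fell by 1.20 and 1.34 (0.0186 and 0.0104), and Fbxo31, an F-box protein, by 0.95 and 1.0 (0.0302 and 0.0211). The median log2 fold change in V5 IP was 0.31 for the other cyclins, -0.11 for the Cdks, -0.72 for the inhibitors and 0.63 for the regulators, beside -0.44 for all genes.

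The gene most like each member was the one with the highest Pearson r among all tested genes outside the list. Runners-up lay close, with Nfatc2ip and Tmem50b at 0.9994 each for Ccnd1. Across the 8 arrays, which share 2 slides and 4 groups, the gene whose pattern was most like that of Ccnd1 was Sall4 (Pearson r 0.9995). For Cdc25a it was Bves (0.997), for Cdc25b Gnaz (0.995), for Ccna2 Ube2n (0.993), for Ccnb1 Psmd10 (0.996) and for Ccnd2 Rnf169 (0.964). For Ccnd3 it was Spaca4 (0.997), for Ccne1 Cpz (0.999), for Ccne2 Bmt2 (0.980) and for Cdc25c a probe named AK086995 (0.989). Among the members, Ccnd1, Cdc25a and Cdc25b ran closest together, with r from 0.944 to 0.961 over the 8 arrays. Each was highest on replicate 1 of V5 IP and GFP IP and lowest on input or mock IP arrays.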

How the data were processed

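The 8 arrays are Agilent mouse 4x44K arrays of one colour (Cy3), 2 for each of the 4 groups, read with Feature Extraction 9.1.3.1 per the file headers. Per the file headers, the deposited processed intensity is background-subtracted and detrended, and it is not normalized between arrays. The mean and local background intensities of the same deposited files served for the normexp alternative (offset 50). A series-wide table that the authors deposited holds a signal per spot and a quality score. The deposited score was used only to match entries to spots (44985 of 45018 matched 1 spot within 1e-05), and the deposited signal, as log2 of the signal plus 0.1, was an alternative.

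Each array's log2 processed intensities were set relative to its own 75th percentile over gene probes, after spots of the same probe had been averaged (outlier spots left out). The filter asked for 2 arrays of some group well above background and a value on all 8 arrays. Of a gene's kept probes, the one with the highest mean represented it. Of 41174 probes, 22944 were named through RefSeq accessions (GRCm38.p6), 6664 by current symbol and 3095 by synonym. The other 8471 kept the name in the array files, so the genes tested include entries without a gene symbol. The naming left the member probes as the array design names them. The test was that of limma 3.58.1 (R 4.3.3; lmFit, then eBayes; two-sided; all 8 arrays; Benjamini-Hochberg over 19020 genes, or over 28077 probes for single probes). The fit was tested on simulated data with independent noise and no slide effect. That test does not bear on the pairing of these arrays.

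The members and lists were chosen with earlier results of these data known. All members are named, and from each list the genes with the 2 largest and the 2 smallest moderated t in V5 IP against mock IP; Cdk2, Cdk4, Cdk6 and the higher cyclin calls were named after their values were seen. Replicate numbers pair the arrays: the series text gives 2 experiments, the headers put each on 1 slide, and the deviations of same-numbered arrays correlated between groups with r from 0.313 to 0.782. Scan and slide coincide. A group's position is the same on either slide, and position and group cannot be told apart. The number of arrays limits the precision. Alternatives are those of the closing section. No sequences are printed, because the arrays' probe sequences and the 3′ untranslated regions were not used here.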

Additional observations from a re-analysis of the deposited data

How the results depend on the processing

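Each of 60 results (10 genes in 6 comparisons) was recomputed under 8 other settings and with each of the 8 arrays left out. Of 15 calls, the 4 of Ccnd1 held under all 8 other settings, with log2 fold changes of 2.41 to 2.70 in V5 IP and 2.59 to 2.91 in GFP IP over mock IP, and 2.76 to 3.07 in V5 IP and 2.96 to 3.28 in GFP IP over input. Every other call ended under at least 1 of them, and 3 calls, those of Ccnd1 except V5 IP against mock IP, held with any array left out. Of 45 results not called, 16 were called under at least 1 other setting and 9 with an array left out. The slide (replicate block) added 14 calls and ended 0.

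Shares of all genes were given above for the main fit and the replicate block only. Moves in the counts below under other settings are therefore not read as results about the members. Counts of members called higher over mock IP in V5 IP (1) became 2 with the authors' deposited table, the mean of all kept probes or quantile normalization, and 5 with the replicate block. In GFP IP (3) they became 5 with the authors' table, the mean of probes or centring on the median, 7 with the replicate block and 1 with normexp. Counts called lower over mock IP (2 in each IP) became 1 in each with the authors' table, with centring and with no filter on dim probes, 0 in each with normexp, and 0 in V5 IP and 1 in GFP IP with only the groups compared. Over input, the counts called higher (2) became 1 in both IPs with normexp, and 1 in V5 IP with the mean of probes or no filter. The counts called lower (1) became 0 in both IPs with the authors' table, centring, no filter and normexp, and 0 in V5 IP with only the groups compared. They became 2 in both IPs with the replicate block, and 3 in V5 IP and 2 in GFP IP with quantile normalization. In mock IP against input the count called (1) became 0 with no filter, normexp or only the groups compared, and 3 with quantile normalization or the replicate block. With an array left out, higher calls ran from 0 to 4 in V5 IP and 1 to 5 in GFP IP over mock IP and from 1 to 3 over input in both, and lower calls from 0 to 2 over mock IP and 0 to 1 over input in both. Calls in mock IP against input ran from 0 to 1.

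None of the 15 calls changed sign. Of the results that did, Ccnb1 in GFP IP against input was called with the replicate block. Under normexp these were Ccna2 in V5 IP against input (0.12), Cdc25a in mock IP against input (-0.073) and, in V5 IP against GFP IP, Ccnd3 (0.12), Ccne1 (0.10), Ccne2 (-0.0071), Ccna2 (0.047), Cdc25c (-0.070) and Dazl (0.049). Under quantile normalization they were Ccnd2 in V5 IP against input (-0.021), Ccnd3 in V5 IP (-0.17) and GFP IP (-0.17) against input and Ccna2 in GFP IP against input (-0.27). With the mean of probes they were Ccne1 in V5 IP against GFP IP (0.049), Ccnb1 in GFP IP against input (0.068) and Cdc25a in mock IP against input (-0.13). Ccna2 in V5 IP against input was 0.055 with the authors' table and 0.043 when centred. With an array left out, V5 IP against GFP IP ran from -0.73 to 0.34 for Ccnd1, -0.088 to 0.067 for Ccnd3, -0.11 to 0.089 for Ccne1, -0.40 to 0.81 for Ccne2, -0.39 to 0.31 for Ccna2, -0.51 to 0.27 for Ccnb1, -0.59 to 0.46 for Cdc25a, -0.57 to 0.29 for Cdc25b, -0.093 to 0.25 for Cdc25c and -0.45 to 0.28 for Dazl. Ccne2 ran from -0.15 to 1.05 in GFP IP and from -1.71 to 0.040 in mock IP against input, and Ccna2 from -0.38 to 0.31 in V5 IP and from -0.25 to 0.25 in GFP IP against input. Where fewer arrays or more genes enter a fit, fewer calls can follow, and for the other settings the cause was not tested. A group left with 1 array is assumed to vary like the others.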
